A study of Mus musculus with 6 samples.

Results

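The miR-181 family was examined in miRNA-seq counts of mouse white adipose tissue (WAT). The 6 rows analysed were the 4 guide arms miR-181a-5p (MIMAT0000210), miR-181b-5p (MIMAT0000673), miR-181c-5p (MIMAT0000674) and miR-181d-5p (MIMAT0004324) and the 2 passenger arms miR-181a-1-3p (MIMAT0000660) and miR-181b-1-3p (MIMAT0017067). They were taken from the 707 mature miRNAs of the count table by their miRBase accession, and all 6 were found. They were chosen by family, and miR-181b-1-3p also because the study took it to RT-qPCR as a downregulated miRNA in these mice. The paper reported it as downregulated by RT-qPCR too, the same direction as in its sequencing. Because of this choice, the difference of miR-181b-1-3p between the groups is given as a description, with no test.

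The samples were WAT of male ApoE-deficient (ApoE-/-) mice, 3 libraries from the control group and 3 from the group kept under chronic intermittent hypoxia (CIH) for 8 weeks. CIH models obstructive sleep apnea, here by cycles in which inhaled oxygen was lowered from 21% to near 6% over 60 s and restored over a further 60 s. Mice of both groups lacked apolipoprotein E, a ligand for the uptake of lipoproteins, and no wild-type group was part of the design. The age of the mice, the gas given to the control group, the fat depot and whether a library came from 1 animal are not given in the sources used here. The p-values below therefore measure the spread between libraries.

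An miRNA hairpin has a 5p and a 3p arm. The guide arm is loaded into Argonaute and pairs through its seed, bases 2 to 8, with target mRNAs, while most copies of the passenger arm are degraded. The miR-181 guides are known for setting the sensitivity of T-cell receptor signalling in the thymus and, for miR-181b, for restraining NF-κB signalling in endothelial cells. In WAT the family has been linked to insulin sensitivity and inflammation.

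The mature sequences are shown first because the members are told apart by few bases. They come from the RefSeq miRNA table on GRCm38.p6, where all 6 members were found, and the capitals mark the seed.
miR-181a-5p: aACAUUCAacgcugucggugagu
miR-181b-5p: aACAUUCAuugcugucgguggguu
miR-181c-5p: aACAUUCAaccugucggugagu
miR-181d-5p: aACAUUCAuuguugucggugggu
miR-181a-1-3p: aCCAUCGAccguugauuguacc
miR-181b-1-3p: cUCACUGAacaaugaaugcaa
miR-181b-2-3p: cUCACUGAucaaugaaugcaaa

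The 4 guide arms share the seed ACAUUCA, and of the 1679 mature names in the table no others carry it. miR-181a-5p and miR-181c-5p differ by 1 base, the base at position 11 of miR-181a-5p, which miR-181c-5p lacks. miR-181b-5p and miR-181d-5p differ by the substitution C12U, counted from the 5′ end of miR-181b-5p, and by 1 base at the 3′ end. A read with a sequencing error or a trimmed end could thus be counted for another guide arm, and how the authors treated such reads is not given in the sources used here. No member had the same counts as another row in all 6 libraries. The passenger arms do not share the guide seed. miR-181b-1-3p shares its seed UCACUGA with miR-181b-2-3p, shown above for comparison, from which it differs by A9U and by 1 added base at the 3′ end of miR-181b-2-3p. miR-181a-1-3p shares its seed CCAUCGA with miR-181c-3p, from which it differs by U16G and U19G. Reads of these passenger arms could likewise be counted for the similar arm.

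The family is encoded by 6 hairpins in 3 pairs. Mir181a-1 (chr1:137966455-137966541, plus strand) and Mir181b-1 (chr1:137966639-137966718, plus strand) lie 97 bases apart, both within an exon of A430106G13Rik, a long noncoding RNA, and in introns of Gm4258 on the same strand and Gm26936 on the other. Mir181a-2 (chr2:38852735-38852810, plus strand) and Mir181b-2 (chr2:38853830-38853918, plus strand) lie 1019 bases apart in an intron of Nr6a1, which is transcribed from the opposite strand, and Mir181b-2 also overlaps an exon of Gm44144 on that strand. Mir181c (chr8:84178873-84178961, minus strand) and Mir181d (chr8:84178716-84178787, minus strand) lie 85 bases apart in an intron of Nanos3. miR-181a-5p and miR-181b-5p are each encoded by 2 hairpins, so their counts pool the loci on chromosomes 1 and 2. miR-181a-1-3p and miR-181b-1-3p are encoded on chromosome 1 alone. The hairpins of that pair are given in lower case with both mature arms in capitals, to show where the passenger arms lie opposite their guides.
Mir181a-1: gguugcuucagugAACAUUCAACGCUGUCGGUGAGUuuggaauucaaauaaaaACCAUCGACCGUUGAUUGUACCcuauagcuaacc
Mir181b-1: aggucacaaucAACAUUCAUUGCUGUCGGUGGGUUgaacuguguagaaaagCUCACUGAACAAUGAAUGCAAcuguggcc

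The RT-qPCR primer of the study for miR-181b-1-3p is shown because miR-181b-2-3p shares the seed of its target, with the bases that match the mature miRNA in capitals.
miR-181b-1-3p primer: gggggCTCACTGAACAATG
Its last 14 bases matched positions 1 to 14 of miR-181b-1-3p, and 1 mature miRNA of the table held them. Within these positions miR-181b-2-3p differs from miR-181b-1-3p by A9U only, so it matches the primer with 1 mismatch.

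The libraries held between 636963 counts (CIH 3) and 4783768 counts (control 2). Control 3 resembled the CIH libraries more than its own group. Across the 633 miRNAs with at least 10 summed counts, its log2 CPM correlated at 0.958 to 0.974 with the CIH libraries and at 0.595 and 0.661 with control 1 and control 2. Controls 1 and 2 held at least 1 count of 487 and 552 miRNAs, against 631 to 649 in the other 4 libraries. The group differences in level, the ratios between arms and the share of miR-181a-5p were therefore also computed without each library in turn, except the level of miR-181b-1-3p without control 2. Levels are given in TMM CPM, counts scaled to a common library size with edgeR's TMM factors, which lay between 0.575 in control 1 and 1.45 in CIH 3.

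miR-181a-5p was the most abundant member in every library. It had 349, 2759 and 898 counts in controls 1, 2 and 3 and 1127, 629 and 650 counts in CIH 1, 2 and 3. Its mean CPM by library totals ranked it 91 of the 707 miRNAs. miR-181b-5p had 201, 952 and 197 counts in controls 1 to 3 and 188, 120 and 148 in CIH 1 to 3. miR-181d-5p had 173, 571 and 209 counts in controls 1 to 3 and 246, 161 and 114 in CIH 1 to 3. miR-181b-5p exceeded miR-181d-5p in 3 of 6 libraries, so these neighbours in the order of levels could not be told apart. miR-181c-5p was lower, with 26, 143 and 45 counts in controls 1 to 3 and 100, 30 and 38 in CIH 1 to 3. miR-181a-1-3p had 12, 124 and 38 counts in controls 1 to 3 and 40, 43 and 24 in CIH 1 to 3, and miR-181c-5p exceeded it in 5 of 6 libraries. miR-181b-1-3p was the lowest member in every library and ranked 579 of 707. This order is one of reads and not of molecules.

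The summed level of the 4 guide arms overlapped between the groups. It was 953, 1068 and 1216 TMM CPM in controls 1, 2 and 3 and 1334, 1016 and 1031 TMM CPM in CIH 1, 2 and 3. The group means were 1079 ± 132 (SD, n = 3) for control and 1127 ± 180 (SD, n = 3) for CIH. The log2 ratio of the means was 0.06, and it was 0.27 with library totals and -0.53 with upper-quartile factors, so its direction depends on the scaling. In bulk tissue, fewer cells that express a miRNA and fewer copies per cell cannot be told apart.

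**Figure D1:**
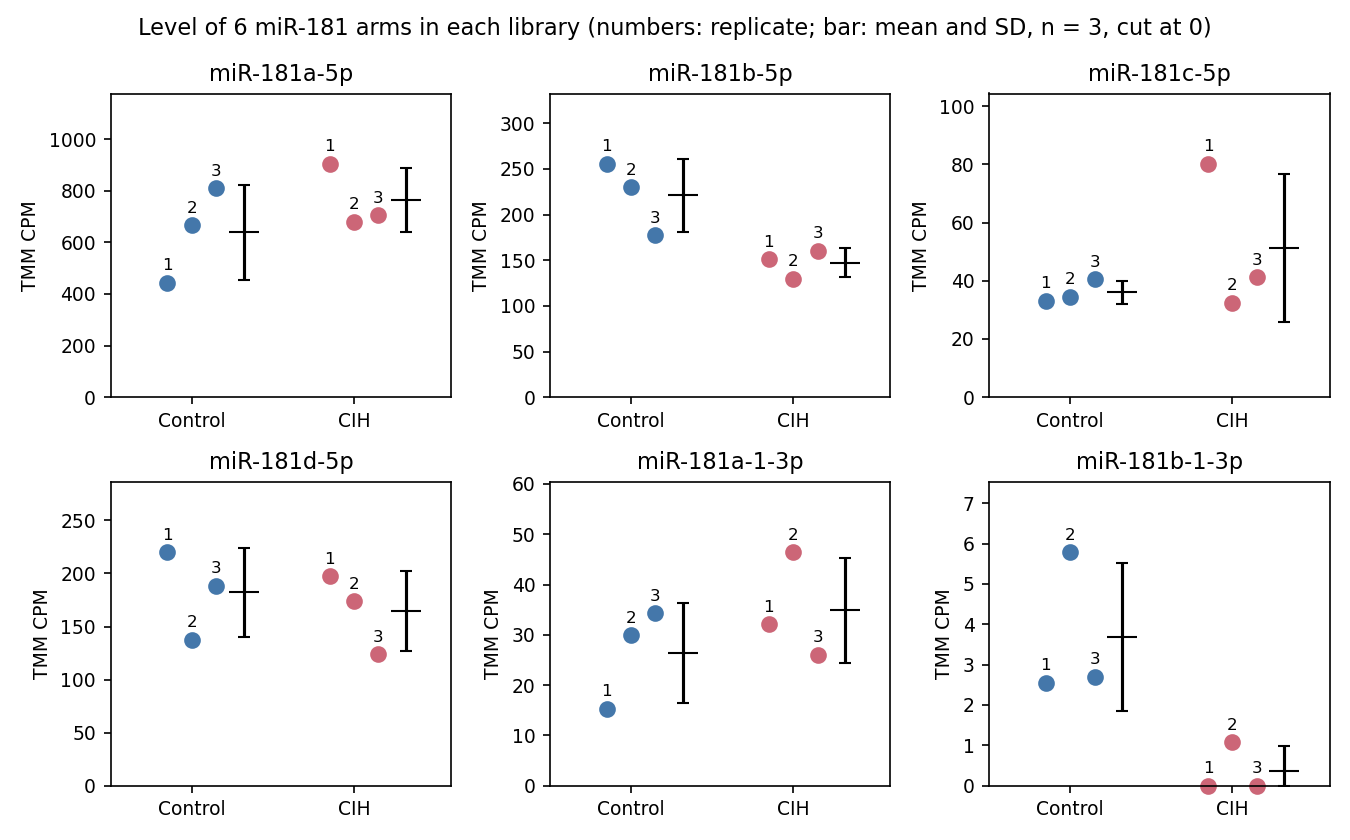
Levels of the 6 miR-181 arms in TMM CPM (vertical axes, linear from 0, a separate scale for each arm) in the 3 control and 3 CIH libraries. Points are libraries with their replicate number, and the black marks give the mean and SD of each group, with the lower end of the SD cut at 0. The groups do not overlap for miR-181b-5p and miR-181b-1-3p, and they overlap for the other 4 arms. Over all miRNAs tested, 51 of 633 (8.06%) do not overlap on this scale.

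Among the guide arms, miR-181b-5p was the only one whose groups did not overlap on the TMM scale. It had 256, 230 and 178 TMM CPM in controls 1, 2 and 3 and 151, 130 and 161 TMM CPM in CIH 1, 2 and 3. All 3 CIH libraries lay below the lowest control library, which was control 3. The means were 221 ± 39.8 (SD, n = 3) and 147 ± 15.8 TMM CPM (SD, n = 3). Its log2 fold change was -0.59 (standard error 0.51, 95% interval -1.81 to 0.63, edgeR adjusted p = 0.882). With library totals in place of TMM factors the groups overlapped and the log2 fold change was -0.21, and with upper-quartile factors it was -1.24 (edgeR adjusted p = 0.572).

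miR-181a-5p, from the same hairpin pairs, had 444, 666 and 809 TMM CPM in controls 1 to 3 and 905, 680 and 705 in CIH 1 to 3. The lowest value was that of control 1 and the highest that of CIH 1, and the groups overlapped. Its log2 fold change was 0.25 (standard error 0.57, 95% interval -1.11 to 1.61, edgeR adjusted p = 0.889).

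Both guides of the chromosome 8 pair overlapped between the groups. miR-181c-5p had 33.1, 34.5 and 40.6 TMM CPM in controls 1 to 3 and 80.3, 32.4 and 41.2 in CIH 1 to 3. CIH 1 alone stood above the others, and CIH 2 had the lowest value of all 6. Its log2 fold change was 0.51 (95% interval -0.87 to 1.89, edgeR adjusted p = 0.882), and without CIH 1 it was 0.07. miR-181d-5p had 220, 138 and 188 TMM CPM in controls 1 to 3 and 198, 174 and 124 in CIH 1 to 3, and the groups overlapped. Its log2 fold change was -0.14 (95% interval -1.42 to 1.13, edgeR adjusted p = 0.923). The sign of this difference turned with library totals (0.12), without control 1 (0.05) and without CIH 3 (0.02), and with upper-quartile factors the value was -0.74.

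The passenger arm miR-181a-1-3p had 15.3, 29.9 and 34.3 TMM CPM in controls 1 to 3 and 32.1, 46.5 and 26.0 in CIH 1 to 3. Control 1 was the lowest library and CIH 2 the highest. Its log2 fold change was 0.39 (95% interval -1.02 to 1.80, edgeR adjusted p = 0.889).

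Upper-quartile factors shifted the median over all miRNAs from a log2 fold change of 0.07 to -0.52, and with them miR-181a-5p (-0.32), miR-181c-5p (-0.08) and miR-181a-1-3p (-0.18) also had values below 0. By edgeR's quasi-likelihood test at an adjusted p under 0.05, 0 of the 5 members tested and 0 of all 633 miRNAs were called (0%), with 16 of the 633 at an unadjusted p under 0.05. DESeq2 and limma voom also called 0 at the adjusted p. At an unadjusted p under 0.05 with a change of at least 1.5-fold, 0 of these 5 members were called, beside 16 of 633 miRNAs (2.53%), of which 3 were higher (0.474%) and 13 lower (2.05%) in CIH. The median log2 fold change of the 4 guide arms was 0.06, and that of all 633 miRNAs was 0.07. The 95% intervals of all 5 members include changes of 1.5-fold in both directions. Without control 3, 118 of the 614 miRNAs then tested had an adjusted p under 0.05, and the smallest adjusted p of these 5 members was 0.222 (miR-181b-5p, log2 fold change -0.74).

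**Figure D2:**
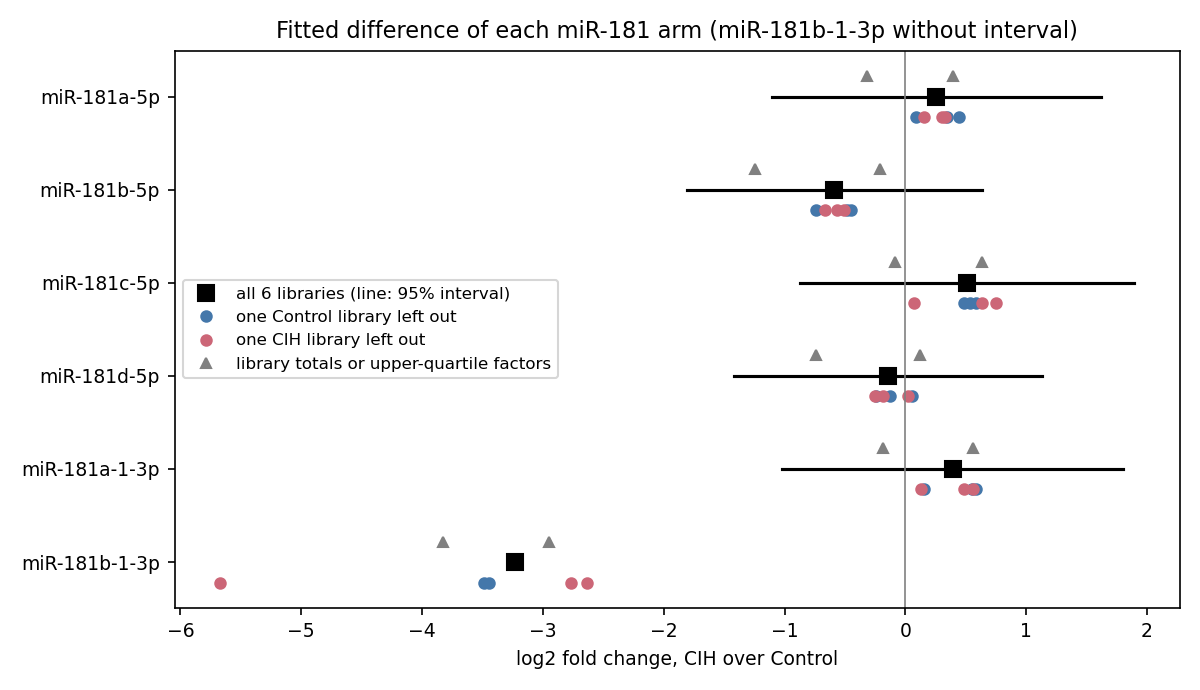
Fitted log2 fold change of CIH over control (horizontal axis) for each miR-181 arm. Black squares use all 6 libraries with 95% intervals, coloured points leave out 1 library, and grey triangles use library totals or upper-quartile factors. The intervals of the 5 tested arms all include 0, and miR-181b-1-3p, drawn without an interval, has no point without control 2 because it then had 6 counts in all.

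The makeup of the guide arm reads within a library needs no scaling between libraries. miR-181a-5p took 46.6%, 62.4% and 66.6% of the reads of the 4 guide arms in controls 1, 2 and 3 and 67.9%, 66.9% and 68.4% in CIH 1, 2 and 3. The SD was 0.760 percentage points over the CIH libraries and 10.5 percentage points over the control libraries (n = 3 each). The groups did not overlap, and the means differed by 9.22 percentage points (two-sided exact permutation test, p = 0.1, the smallest p that 3 libraries against 3 allow). Adjusted over the 4 ratios and shares tested in this way, the p was 0.4. Control 3 and CIH 2 were within counting error of each other, with exact 95% binomial intervals of 64.0% to 69.1% and 63.8% to 69.9%. Control 1 stood lowest, with an interval of 43.0% to 50.2%. Without control 1 the difference was 3.27 percentage points.

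**Figure D3:**
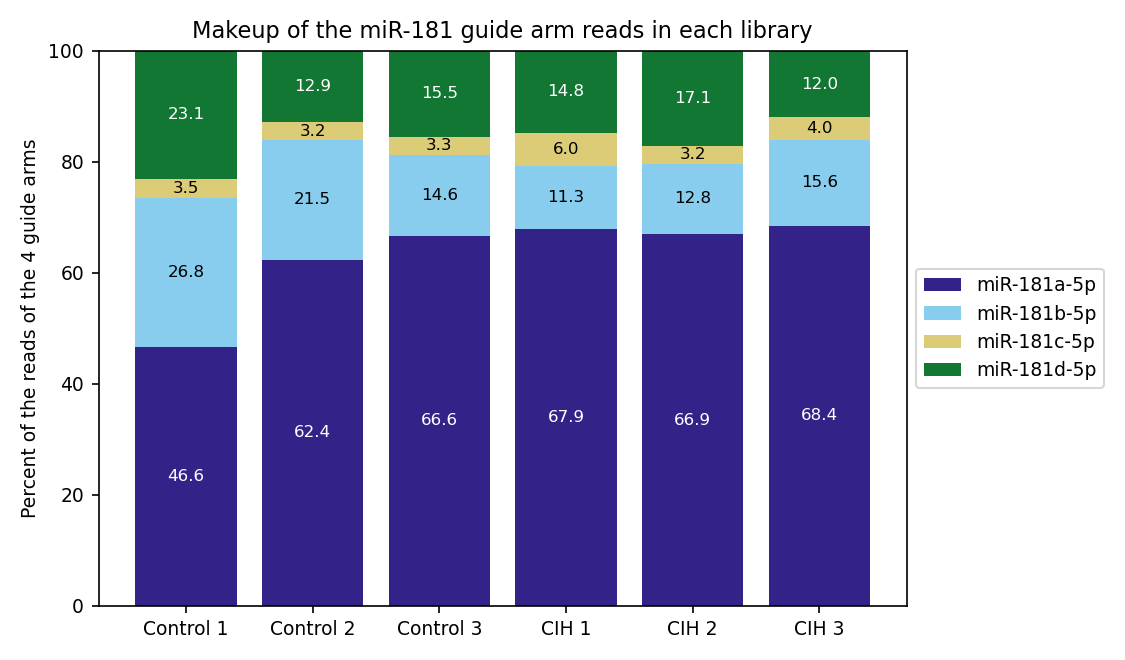
Percent of the reads of the 4 miR-181 guide arms (vertical axis) that each arm took in each library. miR-181a-5p took 66.9% to 68.4% in CIH 1 to 3 and 46.6% to 66.6% in the control libraries.

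The share of miR-181b-5p overlapped between the groups. It took 26.8%, 21.5% and 14.6% of the guide reads in controls 1, 2 and 3 and 11.3%, 12.8% and 15.6% in CIH 1, 2 and 3. There were 57.6, 34.5 and 21.9 reads of miR-181b-5p per 100 of miR-181a-5p in controls 1 to 3 and 16.7, 19.1 and 22.8 in CIH 1 to 3. Controls 1 and 2 were above the CIH libraries, and control 3 lay among them. The mean log2 ratio differed by -0.86, CIH minus control (two-sided exact permutation test, p = 0.2, adjusted p = 0.4 over the 4 tests, smallest possible p 0.1). Without control 3 it was -1.20, with the smallest p possible, and without control 1 it was -0.50.

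miR-181d-5p took 23.1%, 12.9% and 15.5% of the guide reads in controls 1 to 3 and 14.8%, 17.1% and 12% in CIH 1 to 3, and miR-181c-5p took 3.47%, 3.23% and 3.34%, and 6.02%, 3.19% and 4.0%. Within their pair there were 6.65, 3.99 and 4.64 reads of miR-181d-5p per read of miR-181c-5p in controls 1 to 3 and 2.46, 5.37 and 3.0 in CIH 1 to 3. The groups overlapped through CIH 2, and the log2 ratio differed by -0.54 (two-sided exact permutation test, p = 0.3, adjusted p = 0.4 over the 4 tests).

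The passenger arm of miR-181a overlapped between the groups relative to its guide. There were 3.44, 4.49 and 4.23 reads of miR-181a-1-3p per 100 of miR-181a-5p in controls 1 to 3 and 3.55, 6.84 and 3.69 in CIH 1 to 3. CIH 2 was the highest, and the other 5 libraries lay close together. The log2 ratio differed by 0.14 (two-sided exact permutation test, p = 0.9, adjusted p = 0.9 over the 4 tests), and without CIH 2 by -0.16. The denominator pools the guide of both miR-181a loci. Apart from counting error, the ratio is thus a lower bound for Mir181a-1 only if every read was counted for its own arm.

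miR-181b-1-3p was counted 2, 24 and 3 times in controls 1, 2 and 3 and 0, 1 and 0 times in CIH 1, 2 and 3. Control 2 held 24 of its 30 reads, and this was the only library above 3 counts, the limit that a count of 0 allows. Controls 1 and 3 and CIH 2 held reads of it at or under this limit, and CIH 1 and CIH 3 held 0. The limit bounds a library with 0 reads and is not a floor for reads that were counted. On the TMM scale it had 2.55, 5.79 and 2.70 CPM in controls 1 to 3 and 0, 1.08 and 0 CPM in CIH 1 to 3. All 3 CIH libraries lay below the 3 control libraries, with TMM factors and with library totals. Together with miR-181b-5p, 2 of the 6 members had lower CIH libraries that did not overlap the control group on the TMM scale. Over all miRNAs tested this was 19 of 633 (3.0%), and 32 of 633 (5.06%) did not overlap in the other direction, 51 of 633 (8.06%) in all. Since miR-181b-1-3p was picked for this direction, nothing is read from the count. It passed the filter of 10 summed counts through control 2, and without that library 6 counts were left and it was not tested.

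The reads of miR-181b-1-3p that CIH libraries would hold at the shares of the control libraries were computed with library totals, not TMM factors. At the share of all counts that it had in control 2, CIH 1, CIH 2 and CIH 3 would have held 7.92, 3.70 and 3.20 reads. At the share of control 1 they would have held 2.31, 1.08 and 0.933 reads, and at the share of control 3, 5.97, 2.79 and 2.41 reads. CIH 1, which had the most counts of the CIH libraries, had an exact 95% Poisson interval of 0 to 2.34 CPM by library totals, and control 1, control 2 and control 3 had 0.177 to 5.29, 3.21 to 7.46 and 0.780 to 11.1 CPM. The intervals of CIH 2 (0.0343 to 7.55 CPM) and CIH 3 (0 to 5.79 CPM) overlapped those of all 3 control libraries. Only CIH 1 against control 2 did not overlap. The arm was picked for this direction and passed the filter through control 2, so these overlaps are a description and not a test. Summed over the libraries, 29 reads in the control group stood against 1 in the CIH group, and without control 2, 5 reads stood against 1. These sums are not scaled for depth. With TMM library sizes the pooled ratio of control over CIH was 14.8, and without control 2 it was 8.16. Both ratios rest on 1 read in the CIH group. The intervals cover counting error only and not the spread between mice.

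**Figure D4:**
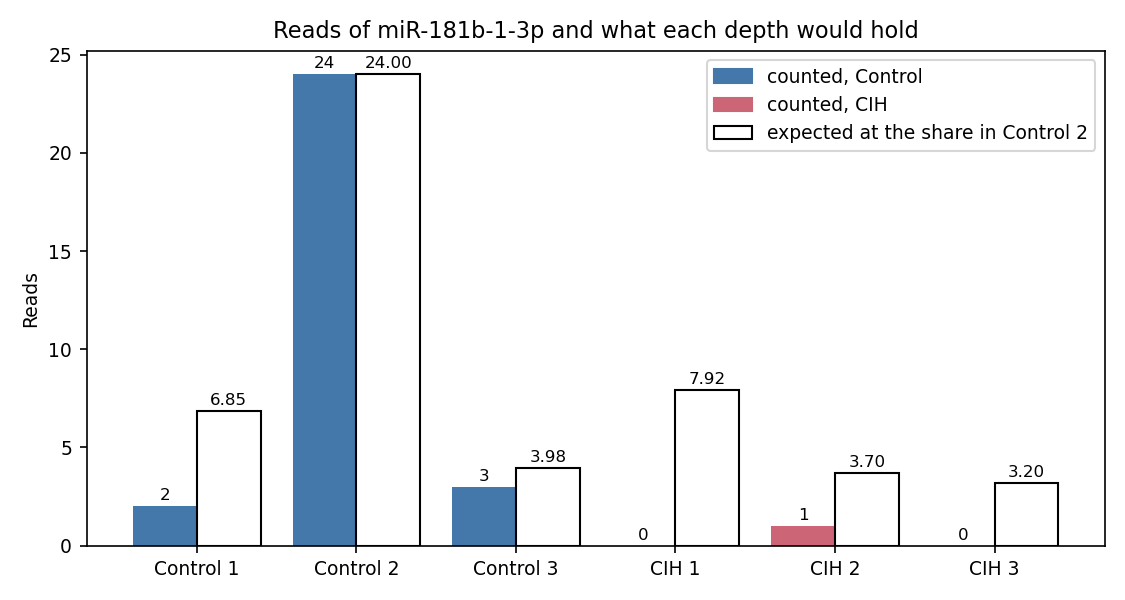
Reads of miR-181b-1-3p (vertical axis) counted in each library (filled bars) and the reads each library would hold at the share of all counts seen in control 2 (open bars). Control 2 held 24 reads, and the open bars of the CIH libraries reach 7.92, 3.70 and 3.20 reads.

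Compared with its guide, miR-181b-1-3p made up 0.985%, 2.46% and 1.5% of the reads of both arms in controls 1, 2 and 3. In CIH 1 to 3 it was 0 of 188 reads, which allows a share of up to 1.6%, 1 of 121 reads (0.826%), and 0 of 148 reads, which allows up to 2.03%. The limit in CIH 1 and CIH 3 thus lies above the shares of controls 1 and 3, and in no library pair of the 2 groups were the exact 95% binomial intervals apart. CIH 1 had 0 to 1.94%, CIH 3 had 0 to 2.46% and control 2 had 1.58% to 3.64%. These two-sided intervals end above the limits of 3 counts, which bound the share from 1 side only. The denominator pools the guide of both miR-181b loci. Apart from counting error, the counted shares are thus lower bounds for Mir181b-1 only if every read was counted for its own arm. The log2 ratio to miR-181b-5p, with 1 added to both counts, had a mean difference of -1.25 (CIH minus control), with SDs of 0.41 for control and 0.87 for CIH (n = 3 each). With this added count the groups overlapped. The shares themselves did not overlap, with 0.985% to 2.46% in control and 0 to 0.826% in CIH. The gap rests on 1 read in CIH 2 and 2 reads in control 1. How often such shares do not overlap over all miRNAs was not computed. Since the arm was picked for this direction, nothing is read from the gap. With 0.5 added the mean difference of the log2 ratio was -1.89. With 1 added and each library left out it lay between -1.74 and -0.92.

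Compared with the other passenger arm of the same hairpin pair, miR-181b-1-3p made up 14.3%, 16.2% and 7.32% of the reads of both arms in controls 1, 2 and 3. In CIH 1 to 3 it was 0 of 40 reads, which allows up to 7.5%, 1 of 44 reads (2.27%), and 0 of 24 reads, which allows up to 12.5%. The limits of CIH 1 and CIH 3 lie above the share of control 3. The two-sided exact 95% intervals, whose upper ends lie above the limits of 3 counts, were 10.7% to 23.2% in control 2 and 0 to 8.81% in CIH 1, which did not overlap. Control 1 (1.78% to 42.8%) and control 3 (1.54% to 19.9%) overlapped every CIH library. miR-181a-1-3p itself had 40, 43 and 24 counts in CIH 1 to 3. It exceeded miR-181b-1-3p in 6 of 6 libraries, with 281 summed counts against 30. Whether an arm as rare as miR-181b-1-3p would be seen at these depths was not tested.

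**Figure D5:**
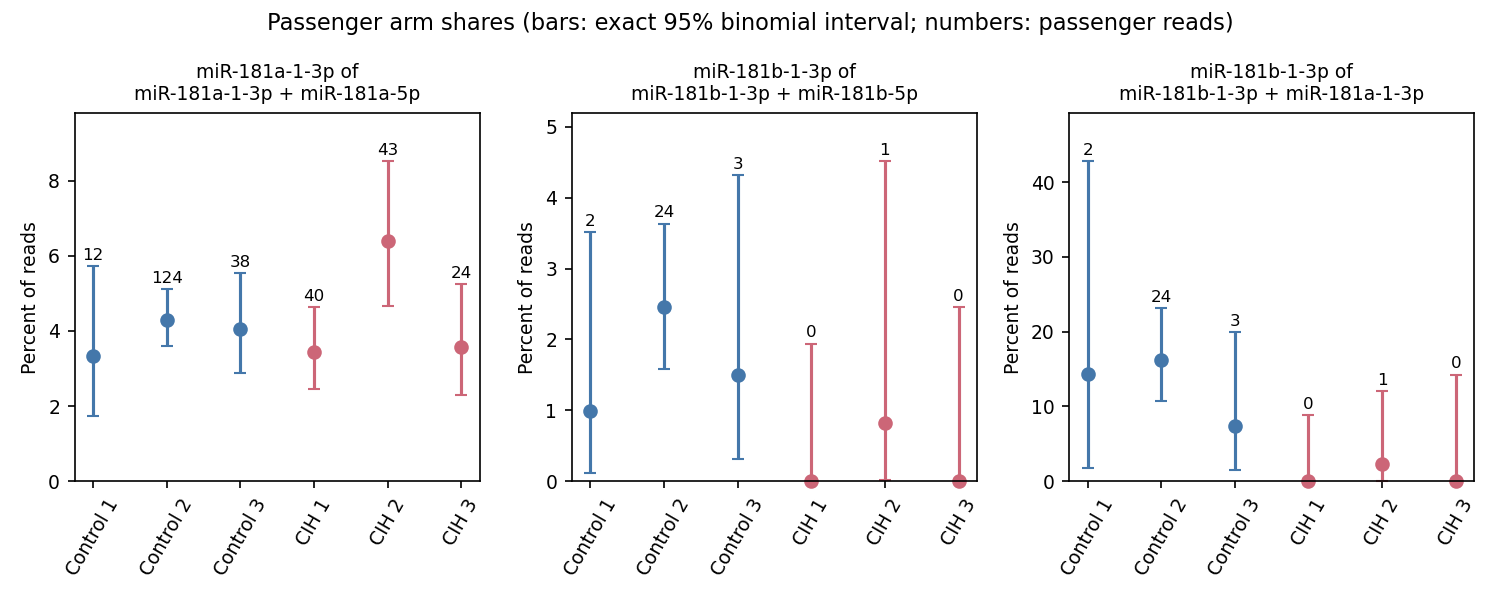
Percent of reads (vertical axes) that are miR-181a-1-3p among both miR-181a arms, miR-181b-1-3p among both miR-181b arms, and miR-181b-1-3p among both passenger arms of the chromosome 1 pair, by library. Bars are exact 95% binomial intervals and the numbers are passenger reads. miR-181a-1-3p has 12 to 124 reads, and miR-181b-1-3p has more than 3 in control 2 only.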

How the data were processed

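Small RNA of WAT was sequenced on an Illumina instrument for 3 control and 3 CIH libraries. The authors deposited raw read counts per mature miRNA accession, without normalization. Trimming, alignment, the miRNA release and the handling of ambiguous reads are not given in the sources used here. Groups were taken from the sample titles, although the labels' extraction text speaks of CIH mice for all samples.

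The members and lists were chosen with earlier results of these data known. The 633 miRNAs with at least 10 summed counts were tested with edgeR 4.0.16 (R 4.3.3) by the quasi-likelihood test with TMM factors and no covariate, and p-values were adjusted over all 633 by Benjamini-Hochberg. Ratios used log2 with 1 added to both counts and two-sided exact permutation tests over libraries. Shares have exact Clopper-Pearson 95% intervals. A count of 0 allows up to 3 counts. Intervals and this limit cover counting error only. The count tests were checked on simulated data with the same dispersion for every miRNA and no library that resembled the other group. The permutation test was checked on a made-up set of values. A library such as control 3 was thus not covered by these checks. Alternatives were DESeq2 1.42.0, limma 3.58.1 with voom, other scalings and filters, the replicate number as a block, 0.5 added in place of 1, and each library left out. Python 3.11.15, scipy 1.17.1 and matplotlib 3.10.9 were used. Positions are from RefSeq (GRCm38.p6) and hosts from GENCODE M21 on GRCm38.

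The rule for the miRNAs named took the 6 members, other arms of the family, miRNAs that share a seed, and the 3 most similar across libraries to miR-181a-5p and to miR-181b-1-3p. The accessions are paired with names for the 6 members only, so the other arms, the similar miRNAs, marker lists of immune, pancreatic, muscle, liver, epithelial, endothelial, erythroid, neuronal and adipose cells, and a list of lymphocyte miRNAs were not analysed here, and the tissue label was not checked against markers.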

Additional observations from a re-analysis of the deposited data

How the results depend on the processing

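None of the 5 members tested reached an adjusted p under 0.05 in the 14 alternatives fitted over all miRNAs, where the values lay between 0.222 and 0.990. miR-181b-5p was lower in the CIH group in all of them. The signs that turned were those of miR-181a-5p (-0.32), miR-181c-5p (-0.083) and miR-181a-1-3p (-0.18) with upper-quartile factors, of miR-181d-5p with library totals (0.12) and without control 1 (0.053) and CIH 3 (0.02), and of the log2 ratio of miR-181a-1-3p to miR-181a-5p without CIH 2 (-0.16). With each library left out, log2 fold changes ran from 0.08 to 0.44 for miR-181a-5p, -0.74 to -0.45 for miR-181b-5p, 0.07 to 0.75 for miR-181c-5p, -0.25 to 0.05 for miR-181d-5p and 0.13 to 0.58 for miR-181a-1-3p. The log2 ratio of miR-181a-1-3p to miR-181a-5p ran from -0.16 to 0.31, that of miR-181b-5p to miR-181a-5p from -1.20 to -0.50, that of miR-181d-5p to miR-181c-5p from -0.86 to -0.32, and the difference in the share of miR-181a-5p from 3.27 to 13.3 percentage points. The fitted log2 fold change of miR-181b-1-3p was -3.23, -3.83 with upper-quartile factors and -2.55 with limma voom, and with single libraries left out it lay between -5.67 and -2.63. It depends on edgeR's prior count where the counts are 0, and it was fitted in 12 of the 14 alternatives (not with 10 counts in every library or without control 2). The log2 ratio of the summed guide arms was 0.06, 0.27 with library totals and -0.53 with upper-quartile factors.

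Over all miRNAs, 16 met an unadjusted p under 0.05 with a change of 1.5-fold, 26 with DESeq2, 39 with upper-quartile factors and 75 with limma voom. Of the 16, 3 were higher and 13 lower in the CIH group, against 6 and 7 with library totals, 8 and 18 with DESeq2, 1 and 38 with upper-quartile factors, 68 and 7 with limma voom, and 150 and 75 without control 3. With each library left out the number ran from 1 (without CIH 3) to 225 (without control 3), and was 6 without CIH 1 or CIH 2. The number with an adjusted p under 0.05 ran from 0 to 118, the latter without control 3. The cause was not tested.

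Replicate numbers recur in both groups, but the correlation of the deviations within a number was 0.353, -0.116 and 0.0195, so they were not taken as pairs. In the fit with a replicate block, 3 miRNAs met the unadjusted p and fold and 0 the adjusted p, and the log2 fold changes of the members kept their signs (0.28 for miR-181a-5p, -0.58 for miR-181b-5p, 0.40 for miR-181c-5p, -0.14 for miR-181d-5p, 0.44 for miR-181a-1-3p and -3.39 for miR-181b-1-3p). Within replicate numbers, the mean differences are by construction those of the groups, and 3 pairs cannot give an exact p under 0.25. Counts under 10 limit miR-181b-1-3p in 5 of 6 libraries.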
